A study of Homo sapiens with 3 samples.

Results

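The occupancy of p300/CBP was examined around 8 genes of the epithelial to mesenchymal transition: the transcription factor genes SNAI1, SNAI2, ZEB1, ZEB2 and TWIST1, the mesenchymal marker genes VIM and CDH2, and the epithelial marker gene CDH1. Members were the peaks whose centre lay within 100 kb of the transcription start site (TSS) of one of these genes in the hg19 genome. They numbered 67 of 82901 siCTL peaks and 32 of 39320 siFra-1 peaks. ChIP-seq had been carried out in MDA-MB-231, a human triple-negative breast cancer line in long use, transfected for 72 h with 4.5 nM of either a control siRNA (siCTL) or 3 mixed siRNAs that target Fra-1 (siFra-1). The cells were fixed for 7 min before chromatin was recovered with 1 antibody that recognises both p300 and CBP. Replicate immunoprecipitations were pooled before library preparation, leaving 1 library per condition. No test between conditions was therefore possible, and the 95% intervals given hold counting error only, peaks being no replicates. The lists give the position of each peak and neither its height nor its reads, so depth is unknown and peak width is the only measure of size. With no transcript levels in these files, neither the amount of Fra-1 nor the markers of the line could be checked.

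p300 and CBP are related lysine acetyltransferases that bind promoters and enhancers through other transcription factors and acetylate histones there. Fra-1, the product of FOSL1, joins Jun proteins in the AP-1 dimer, which binds the sequence TGAGTCA and its reverse complement. In the epithelial to mesenchymal transition, cells lose E-cadherin-based junctions and gain motility. The Snail proteins encoded by SNAI1 and SNAI2 and the ZEB proteins encoded by ZEB1 and ZEB2 bind E-boxes such as CAGGTG and repress CDH1, which encodes E-cadherin, and TWIST1 encodes a basic helix-loop-helix factor of the same programme. VIM encodes the intermediate filament vimentin and CDH2 encodes N-cadherin, both typical of mesenchymal cells. MDA-MB-231 is known as a mesenchymal-like line with little E-cadherin.

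The sequences of all AP-1 motifs found within peaks of the 8 genes are shown first, since AP-1 is the complex that holds Fra-1. Only exact matches to TGAGTCA or TGACTCA are listed, and sequences that depart from them are not. Each is printed 5′ to 3′ on the plus strand of hg19, with the motif in capitals. The site in the first exon of VIM is printed with shorter flanks.
SNAI1 downstream site, both lists, chr20:48646686-48646732: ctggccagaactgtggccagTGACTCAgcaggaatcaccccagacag
SNAI1 downstream site, siFra-1 list, chr20:48644547-48644593: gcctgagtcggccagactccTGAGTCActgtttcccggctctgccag
ZEB1 upstream site, siCTL list, chr10:31604582-31604628: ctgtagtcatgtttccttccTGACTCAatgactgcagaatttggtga
VIM upstream site, both lists, chr10:17258340-17258386: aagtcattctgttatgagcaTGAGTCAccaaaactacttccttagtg
VIM first exon site, both lists, chr10:17270515-17270541: cagggcgcggTGAGTCAccgccggtga
CDH1 upstream site, siFra-1 list, chr16:68741495-68741541: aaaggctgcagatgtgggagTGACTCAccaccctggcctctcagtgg
CDH1 upstream site, siFra-1 list, chr16:68741941-68741987: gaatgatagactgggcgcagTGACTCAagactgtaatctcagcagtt
These 7 sites lay near 4 of the 8 genes, and 3 of them were within peaks of both lists.

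The promoters of ZEB1 and VIM are shown because they carried the only peaks near a TSS of the 8 genes. The stretches printed end at the base before the TSS, on the plus strand, which is the coding strand of both genes. Capitals mark the E-box CAGGTG and the TEAD motif CATTCC, the reverse complement of GGAATG, in ZEB1, and the RUNX motif TGTGGT in VIM. TEAD and RUNX factors are enhancer-binding factors that can act together with AP-1.
ZEB1 promoter, siCTL list, chr10:31607202-31607423: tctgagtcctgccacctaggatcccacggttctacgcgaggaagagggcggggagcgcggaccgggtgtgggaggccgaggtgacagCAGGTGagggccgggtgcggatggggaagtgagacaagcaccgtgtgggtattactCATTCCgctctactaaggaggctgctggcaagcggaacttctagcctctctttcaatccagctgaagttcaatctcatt
VIM promoter, both lists, chr10:17270052-17270239: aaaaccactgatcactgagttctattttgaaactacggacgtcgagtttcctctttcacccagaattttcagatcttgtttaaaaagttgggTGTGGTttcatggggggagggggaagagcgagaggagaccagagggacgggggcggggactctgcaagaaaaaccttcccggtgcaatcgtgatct
The ZEB1 stretch was within a siCTL peak alone, and the VIM stretch was within a peak of each list.

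Stretches of the intron peaks of CDH1 that were wider in siFra-1 are shown since the locus with the largest difference in width of the 7 shared loci, at +55.8 kb, is among them. They are parts of the siFra-1 peaks on the plus strand, the coding strand of CDH1. A TEAD motif is in capitals in the stretch at +53.1 kb and a RUNX motif in that at +55.8 kb. Only the stretch at +7.73 kb is centred on its peak, and the others lie off the peak centre. The stretch at +53.1 kb leaves out the siCTL peak of that locus. The whole siFra-1 peak there held 2 TEAD motifs and 1 RUNX motif.
CDH1 intron peak at +7.73 kb, chr16:68778847-68779006: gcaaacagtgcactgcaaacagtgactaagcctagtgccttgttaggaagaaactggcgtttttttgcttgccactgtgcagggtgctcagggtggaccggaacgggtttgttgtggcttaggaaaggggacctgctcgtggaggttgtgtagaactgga
CDH1 intron peak at +53.1 kb, chr16:68824052-68824211: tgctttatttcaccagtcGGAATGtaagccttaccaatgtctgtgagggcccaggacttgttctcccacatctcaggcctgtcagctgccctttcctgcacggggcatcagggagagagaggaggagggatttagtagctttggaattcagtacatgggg
CDH1 intron peak at +55.8 kb, chr16:68827008-68827167: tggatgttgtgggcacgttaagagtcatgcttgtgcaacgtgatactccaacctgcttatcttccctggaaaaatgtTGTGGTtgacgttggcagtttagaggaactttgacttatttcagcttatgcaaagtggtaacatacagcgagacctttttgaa
None of the motifs sought was found in the stretch at +7.73 kb.

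Around the 8 genes, siFra-1 had fewer peaks than siCTL, the ratio of peak numbers being close to that of the whole lists. The 32 siFra-1 peaks against 67 siCTL peaks gave a ratio of 0.478 (exact interval 0.303 to 0.738), and the whole lists gave 0.474. ZEB1, ZEB2 and CDH2 had the lowest ratios of peaks, and SNAI2 and TWIST1 had 1 peak in each list. The lists shared 7 loci, at VIM, CDH1 and SNAI1. The 4 at CDH1 and that at SNAI1 were wider in siFra-1, and the 2 at VIM were narrower. Of all shared loci in the lists, 52.3% were wider and 24.3% narrower. Shared peaks were 13.4% of siCTL and 21.9% of siFra-1 peaks at the 8 genes, beside 9.56% and 19.1% of the whole lists. Fewer siFra-1 than siCTL peaks were found at 6 of the 8 genes, as many at SNAI2 and TWIST1, and more at 0 genes. In windows of 250 kb SNAI2 and TWIST1 each had 5 siCTL and 2 siFra-1 peaks. Among the 19237 protein-coding genes with a peak, 85.8% had fewer siFra-1 peaks and 7.68% had more. The median was 6 siCTL peaks and 2 siFra-1 peaks per gene for the 8 genes, as it was for all protein-coding genes. The plot of peak positions shows where the peaks lay.

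**Figure D1:**
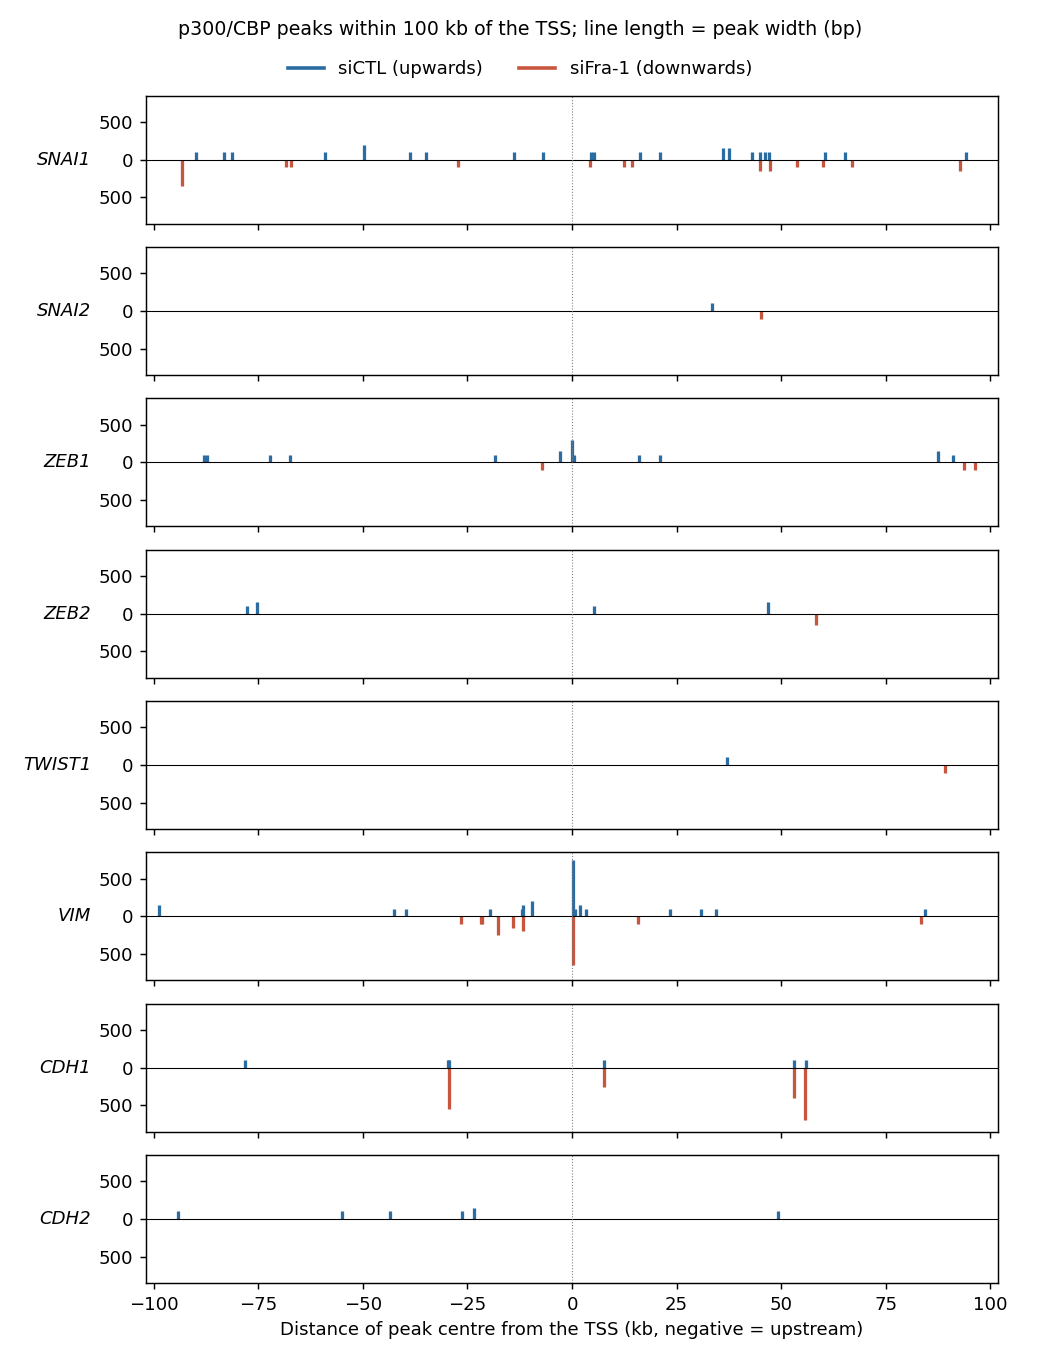
Peaks of siCTL (upwards) and siFra-1 (downwards) at each of the 8 genes. The horizontal axis is the distance of the peak centre from the TSS in kb, negative upstream, and the height of each line is the peak width in bp. The widest siFra-1 peak lies at +55.8 kb of CDH1, and CDH2 has siCTL peaks alone.

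Peaks of 100 bp, the narrowest in the lists, numbered 53 against 19, giving a ratio of 0.358 (0.2 to 0.616) beside 0.398 for the whole lists. For peaks of 150 to 200 bp there were 12 and 6, with a ratio of 0.5 (0.154 to 1.44) beside 0.577. Wide peaks, taken here as those of 250 bp and over, numbered 2 in siCTL and 7 in siFra-1. They were 2.99% of siCTL and 21.9% of siFra-1 peaks at the 8 genes, and 4.41% and 15.2% of the whole lists. The ratio of wide peaks, 3.5, had an interval from 0.666 to 34.5, which holds the 1.64 of the whole lists. Without CDH1, a setting added after the data were seen, there were 2 and 3 wide peaks. The siCTL peaks covered 8250 bp and the siFra-1 peaks 6000 bp, a ratio of 0.727 beside 0.632 for the whole lists. Its direction turned when narrow peaks were left out, to 1.39 with a minimum width of 150 bp and 3.0 with 250 bp. Mean width was 123 bp in siCTL and 188 bp in siFra-1, and the median was 100 bp in both. Of the 4 genes with a wide peak in either list, SNAI1, VIM and CDH1 had more of them in siFra-1 and ZEB1 had fewer. Among the 6399 protein-coding genes with a wide peak, 49.5% had more in siFra-1.

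**Figure D2:**
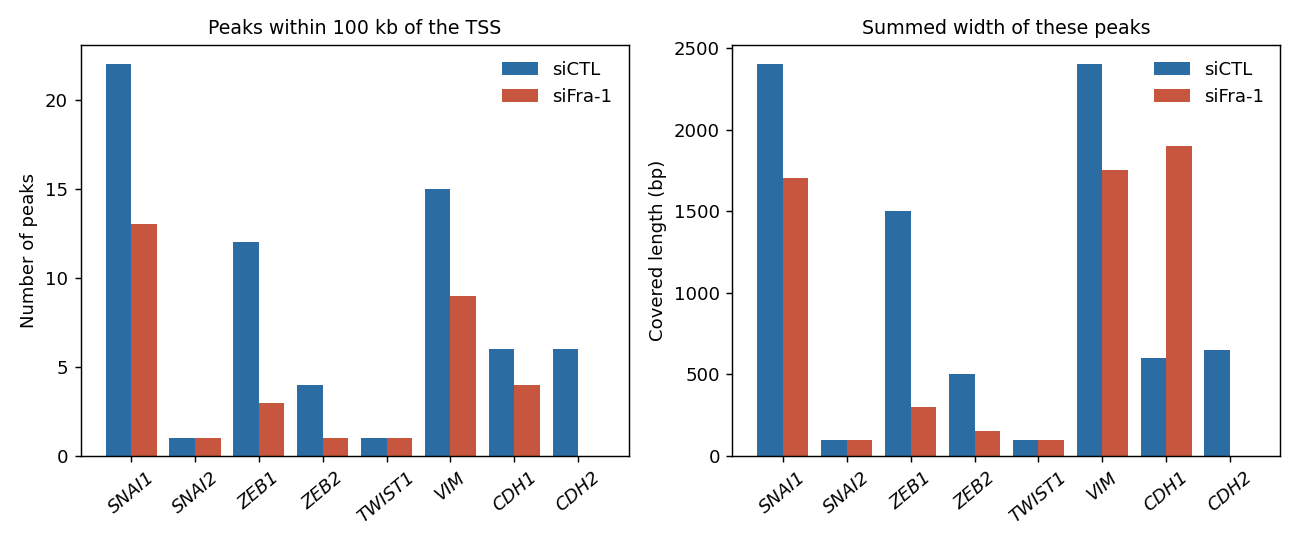
Number of p300/CBP peaks within 100 kb of the TSS of each gene (left) and their summed width in bp (right) in siCTL (blue) and siFra-1 (red), 1 library each. SNAI1 has 22 and 13 peaks, and CDH1 has fewer peaks in siFra-1 but 1900 bp covered against 600 bp in siCTL.

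SNAI1 (chr20:48599517-48605423, plus strand), which encodes Snail, had the most peaks of the 8 genes. The siCTL list held 22 peaks covering 2400 bp and the siFra-1 list 13 peaks covering 1700 bp, a ratio of 0.591 (0.273 to 1.23). Peaks were fewer at 97% of protein-coding genes in siCTL and at 96.9% in siFra-1. The TSS of SPATA2 and RNF114 lie within the same window, at -67.5 and -46.6 kb, and the TSS of SNAI1 was the nearest for 14 of the siCTL and 7 of the siFra-1 peaks. The lists shared 1 locus, at +47.3 kb (chr20:48646702-48646851), between genes, where the peak was 100 bp in siCTL and 150 bp in siFra-1. This locus holds the first AP-1 site printed above. A further pair abutted without overlap at +44.9 and +45.01 kb, with a siCTL peak of 100 bp followed by a siFra-1 peak of 150 bp that holds the other SNAI1 site. In intron 2 of SNAI1, a siCTL and a siFra-1 peak lay 50 bp apart at +4.48 and +4.33 kb. No peak of either list came within 1.5 kb of the TSS. The widest siCTL peak was 200 bp at -49.7 kb. The widest siFra-1 peak was 350 bp at -93.4 kb (chr20:48505952-48506301), in an untranslated part of SLC9A8, and had no siCTL overlap.

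SNAI2 (chr8:49830157-49834299, minus strand), which encodes Slug, had 1 peak of 100 bp in each list. They were at different places between genes downstream, the siCTL peak at +33.5 kb and the siFra-1 peak at +45.3 kb, 11700 bp apart. Fewer peaks were found at 5.95% of protein-coding genes in siCTL and at 18.9% in siFra-1. TWIST1 (chr7:19060614-19157259, minus strand) likewise had 1 peak of 100 bp per list, the siCTL peak at +37.2 kb and the siFra-1 peak at +89.2 kb, both within the long gene model that the annotation gives to TWIST1 and 51950 bp apart.

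ZEB1 (chr10:31607424-31818742, plus strand) had 12 siCTL peaks covering 1500 bp and 3 siFra-1 peaks covering 300 bp, a ratio of 0.25 (0.0453 to 0.926). Its place among protein-coding genes was the 78.3 percentile in siCTL and the 51.2 percentile in siFra-1, counted as the percentage of genes with fewer peaks. None of its peaks was shared. Sharing was uncommon in the whole lists too, at 9.56% for siCTL and 19.1% for siFra-1. With so few peaks, this lack of overlap is not read as particular to ZEB1. The widest siCTL peak was 300 bp, spanned the TSS (chr10:31607202-31607501) and was centred in an exon of the antisense RNA gene ZEB1-AS1. A siCTL peak of 100 bp followed at +0.378 kb, and one of 150 bp with the AP-1 site printed above preceded at -2.85 kb. The closest siFra-1 peak to the promoter peak was 6850 bp away, at -7.12 kb. The other siFra-1 peaks, at +93.7 and +96.5 kb in a ZEB1 intron, were likewise 100 bp wide, and the smallest distance between a ZEB1 peak of one list and the other list was 2550 bp. In the whole siCTL list, 548 wide peaks, or 15% of wide peaks, had no siFra-1 overlap.

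ZEB2 (chr2:145121931-145278624, minus strand) had 4 siCTL peaks covering 500 bp and 1 siFra-1 peak of 150 bp, a ratio of 0.25 with an interval from 0.00508 to 2.53. The siCTL peaks were within ZEB2 introns at +46.8 kb (150 bp) and +5.37 kb (100 bp), and upstream at -75.3 kb (150 bp) and -77.8 kb (100 bp). The siFra-1 peak lay at +58.4 kb, with no overlap and 11500 bp from the nearest siCTL peak. Its centre was in intron 2 of the main annotated ZEB2 transcript. The same place was exon in another ZEB2 transcript and in AC009951.1, a gene not annotated as protein-coding.

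VIM (chr10:17270240-17279592, plus strand) had 15 siCTL peaks covering 2400 bp and 9 siFra-1 peaks covering 1750 bp, a ratio of 0.6 (0.232 to 1.46). The TSS of CUBN and TRDMT1 lie in the same window, and the TSS of VIM was the nearest for 11 of the siCTL and 4 of the siFra-1 peaks. The promoter held the widest peak of the gene in both lists, 750 bp in siCTL (chr10:17270002-17270751) and 650 bp in siFra-1 (chr10:17270052-17270701), spanning the TSS and reaching into the untranslated first exon. Peaks of 750 bp and over were 0.174% of the siCTL list, and those of 650 bp and over were 1.83% of the siFra-1 list. A second shared locus lay at -11.8 kb in VIM-AS1, an antisense RNA gene (chr10:17258302-17258601). It held 2 siCTL peaks of 100 and 150 bp and 1 siFra-1 peak of 200 bp, and the AP-1 site printed above. Both shared VIM loci were thus narrower in siFra-1, by 100 and 50 bp. The siCTL list further held peaks at +0.661 kb (100 bp), +1.94 kb (150 bp) and +3.26 kb (100 bp) within VIM, none of them shared. The siFra-1 list held a peak of 250 bp at -17.7 kb (chr10:17252452-17252701) without siCTL overlap, for which the nearest TSS was that of TRDMT1, 8.52 kb away.

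CDH2 (chr18:25512843-25757910, minus strand) was the only one of the 8 genes without a siFra-1 peak, against 6 siCTL peaks covering 650 bp. The ratio of 0 had an upper bound of 0.849. The siCTL peaks were 100 bp wide except 1 of 150 bp at -23.4 kb. One lay in intron 2 of CDH2 at +49.3 kb, and the others were between genes at -26.2, -43.5, -54.9 and -94.2 kb. The nearest siFra-1 peak was 51100 bp from any of them, and a window of 250 kb held 7 siCTL and 3 siFra-1 peaks. Of the 1400 protein-coding genes with 6 siCTL peaks, 176 (12.6%) had 0 siFra-1 peaks, and their median was 2. This comparison was chosen after the values of CDH2 were seen. Because the lists hold only runs of signal above a threshold, a missing peak does not show that p300/CBP was absent.

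CDH1 (chr16:68771195-68869440, plus strand) had 6 siCTL peaks covering 600 bp and 4 siFra-1 peaks covering 1900 bp. The ratio of peak numbers was 0.667 (0.138 to 2.81), and mean width was 100.0 bp in siCTL and 475.0 bp in siFra-1. All 4 siFra-1 peaks were wide and all overlapped siCTL peaks, whereas each of the 6 siCTL peaks was 100 bp and 5 of them were shared. The first locus was at -29.4 kb (chr16:68741502-68742051) in an intron of CDH3, the neighbouring gene for P-cadherin, where siCTL had 2 peaks of 100 bp and siFra-1 had 1 peak of 550 bp. The others were all in intron 2 of CDH1. At +7.73 kb (chr16:68778802-68779051) the peak was 100 bp in siCTL and 250 bp in siFra-1. At +53.1 kb (chr16:68824052-68824451) it was 100 bp and 400 bp. At +55.8 kb (chr16:68826652-68827351) it was 100 bp and 700 bp, and the siCTL peak lay at 68827102 to 68827201 within the siFra-1 peak. For the peaks of both lists at this last locus the nearest TSS was that of TANGO6, 50.4 kb from the siFra-1 peak. TANGO6 was also nearest to the siCTL peak, though not to the siFra-1 peak, at +53.1 kb. The TSS of CDH1 was the nearest for 3 of the siCTL and 3 of the siFra-1 peaks. The siCTL peak without overlap was at -78.2 kb, also in an intron of CDH3. No peak of either list came within 1.5 kb of the CDH1 TSS. Only 41 of 20136 protein-coding genes (0.204%) had, like CDH1, at least 4 wide siFra-1 peaks and 0 wide siCTL peaks. These limits were set from the CDH1 values after they were seen.

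**Figure D3:**
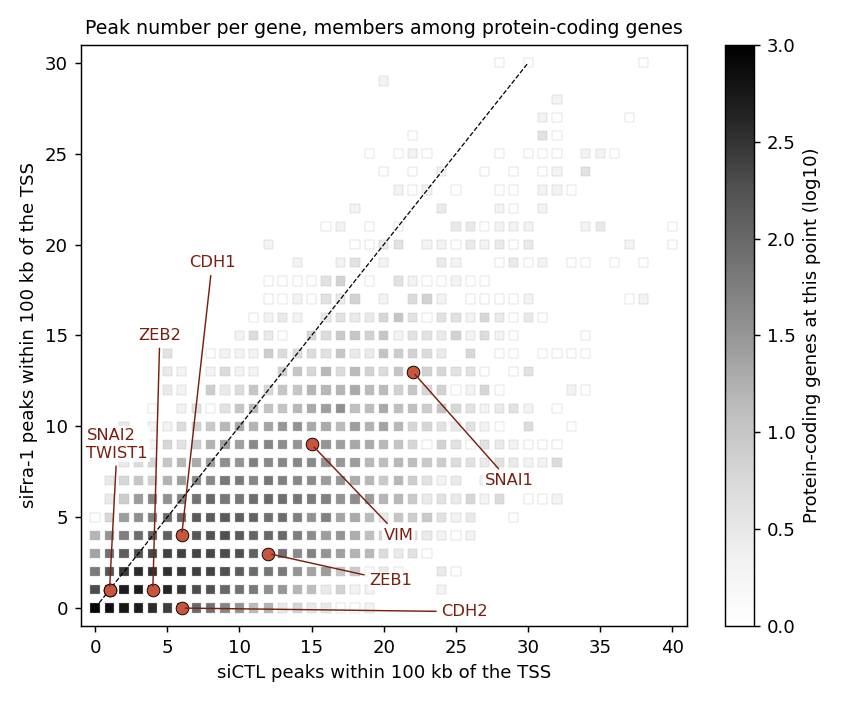
Number of siCTL peaks (horizontal axis) and siFra-1 peaks (vertical axis) within 100 kb of the TSS of protein-coding genes, with grey squares darker for more genes on a log10 scale, and the 8 genes as red points. The axes leave out 17 genes with over 40 siCTL or 30 siFra-1 peaks. The dashed line marks equal numbers, and SNAI2 and TWIST1 lie on it while the other 6 genes lie under it.

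A peak overlapped by at least 1 bp by a peak of the other list was counted as shared. At the 8 genes, 9 of 67 siCTL peaks were shared (13.4%, Wilson interval 7.23 to 23.6%). The siFra-1 list had 7 shared peaks of 32 (21.9%, 11 to 38.8%). The whole lists gave 9.56% and 19.1%, both within these intervals. CDH1 accounted for 5 of the shared siCTL peaks and 4 of the shared siFra-1 peaks, VIM for 3 and 2, and SNAI1 for 1 and 1. Without CDH1, the shares were 6.56% and 10.7%. Among siCTL peaks of 100 bp, 7 of 53 (13.2%, 6.55 to 24.8%) were shared, against 3.79% of such peaks in the whole list. CDH1 held 5 of these 7 peaks, each overlapped by a wide siFra-1 peak. Among siFra-1 peaks of 100 bp, 0 of 19 were shared, with a Wilson upper bound of 16.8%, against 6.56% in the whole list. Of the wide siFra-1 peaks, 5 of 7 were shared (71.4%, 35.9 to 91.8%), against 68.2% in the whole list.

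The 7 shared loci were wider in siFra-1 in 5 cases, at CDH1 and SNAI1, and narrower in 2 cases, at VIM. The share of wider loci was 71.4% (35.9 to 91.8%), and over the 7292 shared loci of the lists 52.3% were wider and 24.3% narrower. Without CDH1 it was 33.3%, 1 of 3 loci. The median difference was 150 bp at the 8 genes and 50 bp over all shared loci. The CDH1 locus at +55.8 kb gained 600 bp, and 79 loci (1.08%) gained at least as much. Gains at least as large as the 350 bp at -29.4 kb were seen at 6.87% of loci, those as large as the 300 bp at +53.1 kb at 9.93%, and those as large as the 150 bp at +7.73 kb at 28.2%. At SNAI1 the locus gained 50 bp, which 52.3% of loci reached. Of the 2121 shared loci with 100 bp in siCTL, the siFra-1 width was 250 bp or more at 594 loci, 400 bp or more at 12.1% and 700 bp or more at 1.23%. The loss of 100 bp at the VIM promoter was equalled or exceeded at 13.2% of loci. Thresholding values were the same in both lists, but a processing parameter that the authors named AThr, the meaning of which is not given in the sources used here, was 79 in siCTL and 130 in siFra-1, and its part in these widths was not tested.

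**Figure D4:**
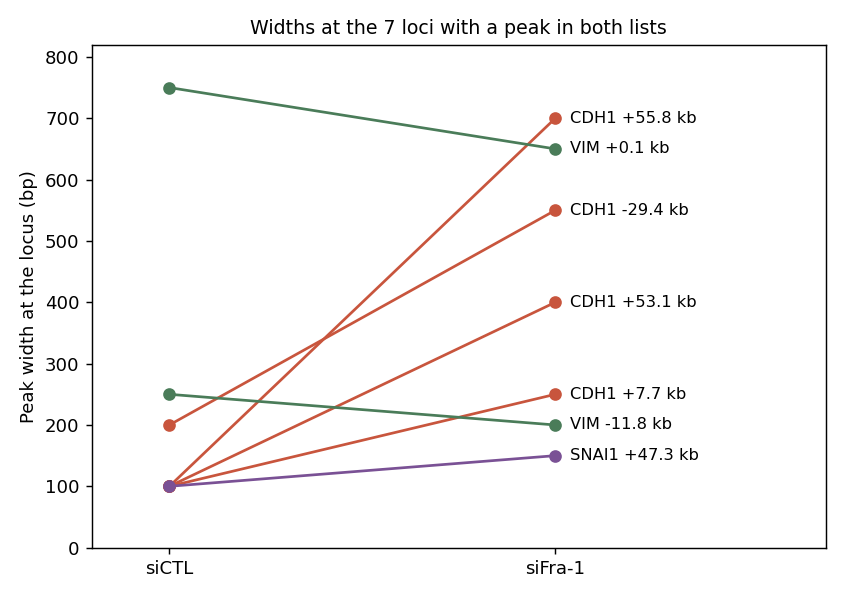
Summed peak width in bp at each of the 7 shared loci in siCTL and siFra-1, joined by a line for each locus and marked with gene and distance from the TSS. The 4 CDH1 loci and the SNAI1 locus are wider in siFra-1, by 50 to 600 bp, and the VIM loci are narrower.

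Peaks near the promoters, taken as those with their centre within 1.5 kb of a TSS, numbered 4 in siCTL, 2 each at ZEB1 and VIM, and 1 in siFra-1, at VIM. Among protein-coding genes 16.0% had such a siCTL peak and 9.21% such a siFra-1 peak. Of the 3213 genes with a siCTL promoter peak, 762 (23.7%) also had one in siFra-1, as VIM did and ZEB1 did not. By the annotation at the peak centre, the siCTL peaks fell to exons in 8, introns in 28 and intergenic sequence in 31 cases, and the siFra-1 peaks in 4, 11 and 17 cases. Peaks upstream of the TSS were 33 of 67 in siCTL and 12 of 32 in siFra-1. The median siCTL peak lay 37.7 kb from the TSS and the median siFra-1 peak 45.2 kb. Of the peaks that did not overlap, 3 siCTL and 2 siFra-1 peaks lay within 200 bp of the other list. Shares over the whole lists are not given here for annotation, side of the TSS, distance or this gap. These counts are therefore not read as traits of the 8 genes. The peak of a gene closest to the limit of 100 kb was a siCTL peak of 150 bp at -98.9 kb of VIM on the inside, and on the outside a siCTL peak of 100 bp at +101 kb of TWIST1.

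The AP-1 motif, as TGAGTCA or TGACTCA in 200 bp centred on the peak, occurred in 5 siCTL peaks among the 67 (7.46%, 3.23 to 16.3%). Among the 32 siFra-1 peaks it occurred in 3 (9.38%, 3.24 to 24.2%). The whole lists held it in 6.15% and 9.08% of peaks. The E-box CAGGTG or CACCTG was in 8 siCTL peaks (11.9%, 6.18 to 21.8%) and 3 siFra-1 peaks (9.38%, 3.24 to 24.2%), beside 17.6% and 15.5% of the lists. The TEAD motif GGAATG or CATTCC was in 13 (19.4%, 11.7 to 30.4%) and 6 (18.8%, 8.89 to 35.3%), beside 13.2% and 17.4%. The RUNX motif TGTGGT or ACCACA was in 14 (20.9%, 12.9 to 32.1%) and 3 (9.38%, 3.24 to 24.2%), beside 15.6% and 17.6%. Each of these intervals holds the value of the whole list. No hits of different motifs overlapped each other within these peaks. Over the whole length of wide siFra-1 peaks, AP-1 was in 2 of 7 (28.6%), beside 32.5% of such peaks in the list. One of them was the CDH1 peak at -29.4 kb, which held 2 AP-1 motifs, 1 E-box and 2 TEAD motifs, and the other was the VIM promoter peak. The intron 2 peaks of CDH1, where siFra-1 peaks were wider, held 0 AP-1 motifs. An AP-1 motif was found in 4 of the 7 shared loci (57.1%), beside 30.5% of all shared loci. No interval was computed for so few loci, and the difference between these shares was not tested. With the looser motif TGANTCA in 200 bp, 10 siCTL peaks (14.9%) and 4 siFra-1 peaks (12.5%) had a match, so the order of the lists turned. Such matches describe letters alone and not binding.

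Other genes of the transition were examined by counts, beside the 85.8% of protein-coding genes with fewer siFra-1 peaks, the 7.68% with more, and the ratio of 0.474 of the whole lists. Of 16 genes of the mesenchymal side, 15 had fewer siFra-1 peaks and 1 had more, with 118 siCTL against 52 siFra-1 peaks, a ratio of 0.441, and medians of 6 and 2 per gene. Wide peaks numbered 13 in both lists. Of 18 genes of the epithelial side, 14 had fewer and 4 had more, with 173 and 111 peaks, a ratio of 0.642, medians of 9.5 and 6, and 16 and 18 wide peaks. Windows of neighbouring genes, such as KRT8 and KRT18 or CLDN3 and CLDN4, share peaks, so these sums count some peaks more than once. With 1 library per condition, the difference between these gene lists was not tested. The largest differences were at TCF3, which encodes the basic helix-loop-helix E proteins, with 18 siCTL and 4 siFra-1 peaks, at the smooth muscle actin gene ACTA2 with 12 and 1, and at DSP, the gene for the desmosome protein desmoplakin, with 13 and 2. The genes with more siFra-1 peaks, named after their values were seen, were the homeobox gene PRRX1 with 2 and 3, and on the epithelial side the keratin genes KRT8 with 9 and 13 and KRT18 with 9 and 12, the tight junction gene TJP1 with 5 and 8, and the adhesion molecule gene EPCAM with 4 and 6.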

How the data were processed

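p300/CBP ChIP-seq lists of 2 of the 3 samples (siCTL, siFra-1) were used, and the input was not analysed here. The deposited files give peak positions in hg19 and no score. The authors aligned reads (BWA-backtrack per their methods, Bowtie2 per the submitters' processing notes), made background-subtracted, scaled signal in 50 bp bins with PASHA, and took runs above a threshold of 25 (maximum gap 50, minimum run 50) with the Integrated Genome Browser. Scaling and a fixed threshold mean that a difference between libraries in enrichment or scaling changes peak number and width as occupancy would. No peak was narrower than 100 bp. Read depth is unknown.

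BED starts were raised by 1. The annotation was GENCODE release 44, lifted to GRCh37, with 20136 protein-coding symbols. Overlaps, widths and motifs were computed with pysam 0.24.0, scipy 1.17.1, pandas 2.3.3 and numpy 2.4.6 under Python 3.11.15, and plots with matplotlib 3.10.9. Functions were tested on simulated data: 1500 of 1500 overlaps among 5000 peaks and 500 of 500 motifs were recovered, and bedtools 2.31.1 gave the same overlaps. Sequence was read from the GRCh37 genome. Overlapping peaks were joined into loci. Shares have Wilson intervals, a share of 0 its Wilson upper bound, and ratios exact Clopper-Pearson intervals, at 95%. With 1 library per condition no test was made. Named were all 8 genes with their widest peaks, peaks of 250 bp and over, promoter peaks, and up to 4 other genes by difference in peak number (3 here, the next being tied). Members and lists were chosen with earlier results of these data known. Alternatives were minimum widths, windows, overlap rules, merging, motif windows and TSS choice.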

Additional observations from a re-analysis of the deposited data

How the results depend on the processing

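Of 59 alternative values of the summary results, 45 stayed within the limits set for a change, and of 48 alternative differences in peak number per gene, 35 did. These counts include the TSS of the main annotated transcript, a setting that left every value unchanged and so adds to the number that stayed. With a minimum width of 150 bp, the ratio of peak numbers was 0.929 and that of covered length 1.39. The difference siFra-1 minus siCTL turned to 1 peak at SNAI1 and 4 at CDH1. It was -3 at ZEB1 and -1 at each of ZEB2, VIM and CDH2. With 250 bp the ratios were 3.5 and 3.0. The differences were 1 at SNAI1, 1 at VIM, 4 at CDH1, -1 at ZEB1 and 0 at the other genes. Of siCTL peaks, 50% (1 of 2) were shared, and 0.0% of shared loci (0 of 1) were wider in siFra-1. AP-1 was in the central 200 bp of 0.0% of siCTL and 0.0% of siFra-1 peaks. Over the whole length it was in 1 of 2 and 2 of 7. Fewer peaks remain under these minima by construction. An overlap of 50% of both peaks gave shared shares of 4.48% and 9.38%. AP-1 was in 17.9% of siCTL and 18.8% of siFra-1 peaks in 400 bp, in 5.97% and 15.6% over the whole peak, and in 14.9% and 12.5% as TGANTCA. Without CDH1, added after the data were seen, shared shares were 6.56% and 10.7% and the wider share 33.3%. Windows of 50 and 250 kb gave ratios of 0.4 and 0.394. At 250 kb the differences were -38 at SNAI1, -27 at ZEB1, -36 at VIM, and -3 at both SNAI2 and TWIST1. At 50 kb ZEB2, TWIST1 and CDH2 had 0 siFra-1 peaks. With 1 library per condition and no peak heights, the precision between cultures is unknown.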
